A study of Homo sapiens with 24 samples.

Results

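The mRNA levels of 7 genes of cholesterol supply were followed in 2 esophageal adenocarcinoma cell lines. These were HMGCS1, IDI1, FDPS, FDFT1, LSS and DHCR7, which encode enzymes of cholesterol synthesis, and SREBF2, which encodes the transcription factor SREBP2. The genes were chosen by name, as 7 of the 58735 genes in the count table, and each name had 1 Ensembl identifier there. All 7 passed the filter on low counts in both cell lines, with between 544 and 7583 reads in each library.

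The lines were OE33 and SK-GT-4, both long established and of human origin. The study asked how these cells respond when chromosome segregation is disturbed by MPS1i (reversine, which blocks MPS1, a kinase of the spindle checkpoint), and which responses need the DNA sensor cGAS. In each cell line, Cas9 control cells (labelled cGAS WT) and cGAS KO cells, in which CRISPR-Cas9 had disrupted CGAS, were grown with DMSO or with 500 nM MPS1i for 48 hours. The 8 groups, named by cell line, genotype and treatment, had 3 libraries each, 1 from each of 3 labelled batches, which made 24 libraries of poly(A) RNA. All groups, the controls too, had been through the Cas9 procedure. The study worked with clones and the labels do not name them, so a genotype within a line was read as 1 clone, and an effect of losing cGAS and a difference between clones cannot be told apart. All statements on the lines compare 1 OE33 pair of clones with 1 SK-GT-4 pair.

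Cells build cholesterol from acetyl-CoA through mevalonate, isoprenoid diphosphates, squalene and lanosterol. When sterols in the endoplasmic reticulum fall, the escort protein SCAP carries SREBP2 to the Golgi, where it is cut, and the released part enters the nucleus and turns on the genes of this route and SREBF2 itself. The factor binds sterol regulatory elements in promoters, usually with NF-Y, which binds CCAAT boxes, and with SP1, which binds GC boxes. Because SREBP2 is controlled by cutting, the mRNA of SREBF2 is not a measure of its activity. The route also feeds protein prenylation, ubiquinone and dolichol.

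A stretch of promoter is printed here for each gene with a RefSeq promoter window. Whether the shared control acts through these bases was not tested. RefSeq windows of GRCh38.p14, each from 250 bases before to 50 after a transcription start, matched 6 of the 7 genes with 10 windows, and FDFT1 is named only. Each stretch is 100 bases on the coding strand, 5′ to 3′, upstream of the RefSeq start and outside annotated exons. It was chosen as the run with the most matches to CCAAT or the sterol regulatory element, so each stretch holds a match by construction. Capitals mark a CCAAT box (CCAAT, or ATTGG where it lies on the other strand) and, in SREBF2, also a sterol regulatory element.
HMGCS1: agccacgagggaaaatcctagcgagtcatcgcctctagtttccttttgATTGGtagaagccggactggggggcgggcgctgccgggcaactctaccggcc
IDI1: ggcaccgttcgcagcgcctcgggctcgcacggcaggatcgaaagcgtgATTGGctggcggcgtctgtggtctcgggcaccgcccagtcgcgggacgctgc
FDPS: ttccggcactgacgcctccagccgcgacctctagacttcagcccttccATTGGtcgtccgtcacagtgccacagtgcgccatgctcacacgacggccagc
LSS: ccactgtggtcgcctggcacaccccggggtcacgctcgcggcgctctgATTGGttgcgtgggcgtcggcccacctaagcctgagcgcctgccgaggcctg
DHCR7: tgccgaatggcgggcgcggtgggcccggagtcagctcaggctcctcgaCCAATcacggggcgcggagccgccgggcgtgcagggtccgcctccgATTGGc
SREBF2: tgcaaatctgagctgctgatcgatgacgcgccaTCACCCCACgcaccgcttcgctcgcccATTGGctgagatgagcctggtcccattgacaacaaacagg

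The HMGCS1 stretch is chr5:43313516-43313615 on the minus strand, and its bases lie 203 to 104 before the start. That of IDI1 is chr10:1049185-1049284, minus strand, 165 to 66 before the start. The FDPS stretch, chr1:155308642-155308741 on the plus strand, lies 224 to 125 before it. For LSS the bases are chr21:46228873-46228972, minus strand, 198 to 99 before the start. The DHCR7 stretch, chr11:71448436-71448535 on the minus strand, lies 142 to 43 before the RefSeq start and inside the span the count table gives the gene (71428193 to 71452868), in no annotated exon. For SREBF2 the stretch is chr22:41832939-41833038, plus strand, 166 to 67 before the start.

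The element was searched as TCANCCCAC on both strands. It occurred in 445 of 35116 promoter windows (1.27%), and SREBF2 was the 1 gene of the 6 that held it. CCAAT, on either strand, was found in windows of 6 of the 6 genes (7 of their 10 windows) and in 34.6% of all windows. The GC box GGGCGG was found in 6 of the 6 genes (9 of 10 windows) and in 45.0% of all windows. These are matches of letters. They do not show binding, and an element outside the window or spelled differently was not searched.

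Total counts per library were between 15561268 and 25284177. CGAS was at 28.9 to 41.6 CPM (read counts scaled to a fixed library size with TMM factors) in OE33 Cas9 and 14.7 to 26.1 CPM in SK-GT-4 Cas9 libraries, while 11 of the 12 libraries with cGAS KO had 2.22 to 6.09 CPM. The OE33 cGAS KO DMSO library of replicate 2 had 15.6 CPM, against its label, and replicate 1 of the SK-GT-4 KO DMSO cells and replicate 2 of the SK-GT-4 Cas9 MPS1i cells had the smallest TMM factors of their line (0.770 and 0.904). Results are given without these 3 libraries where that matters. The epithelial markers KRT8, KRT18 and KRT19 were at 486 CPM or more in every library, CDH1 was at 358 to 1028 CPM in OE33 and 3.83 to 13.8 CPM in SK-GT-4 Cas9, and the leukocyte markers PTPRC and CD3E were at 0.163 CPM or less (CD14 was at 1.33 to 34.5 CPM). The 3 endothelial markers summed to 0.362 CPM or less in OE33 and to 5.40 to 19.2 CPM in SK-GT-4, and the 3 fibroblast markers to 7.03 CPM or less and to 4.33 to 81.3 CPM. Their part in any difference between the lines was not tested. In such bulk libraries, fewer cells with a transcript and less of it per cell cannot be told apart. The p-values measure the spread between these libraries.

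Compared per kilobase of gene model, DHCR7 had the highest mean in each of the 8 groups and LSS the lowest. The DHCR7 range overlapped with that of FDFT1 in OE33 cGAS KO MPS1i and in all SK-GT-4 groups but Cas9 DMSO. In SK-GT-4 cGAS KO DMSO it was 8.41 to 62.6 CPM per kilobase against 33.2 to 42.7 for FDFT1, and there LSS overlapped with SREBF2 and IDI1. In OE33 Cas9 DMSO libraries, the means were 55.8 ± 26.2 CPM per kilobase (SD, n = 3) for DHCR7, 30.5 ± 2.26 for FDFT1, 24.3 ± 0.376 for FDPS, 22.8 ± 7.86 for SREBF2, 18.9 ± 2.62 for HMGCS1, 14.2 ± 2.14 for IDI1 and 4.88 ± 0.691 for LSS. FDFT1 lay above FDPS beyond the spread of both, while FDPS and SREBF2 were neighbours whose ranges overlapped, and so did those of SREBF2 and HMGCS1. In SK-GT-4 Cas9 DMSO libraries, DHCR7 (33.2 ± 4.13) led FDPS (23.2 ± 1.02) and FDFT1 (22.2 ± 1.46), which overlapped. SREBF2 (11.3 ± 2.41), IDI1 (11.3 ± 1.60) and HMGCS1 (10.1 ± 0.349) also overlapped, and LSS (7.49 ± 0.441) was below them.

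**Figure D1:**
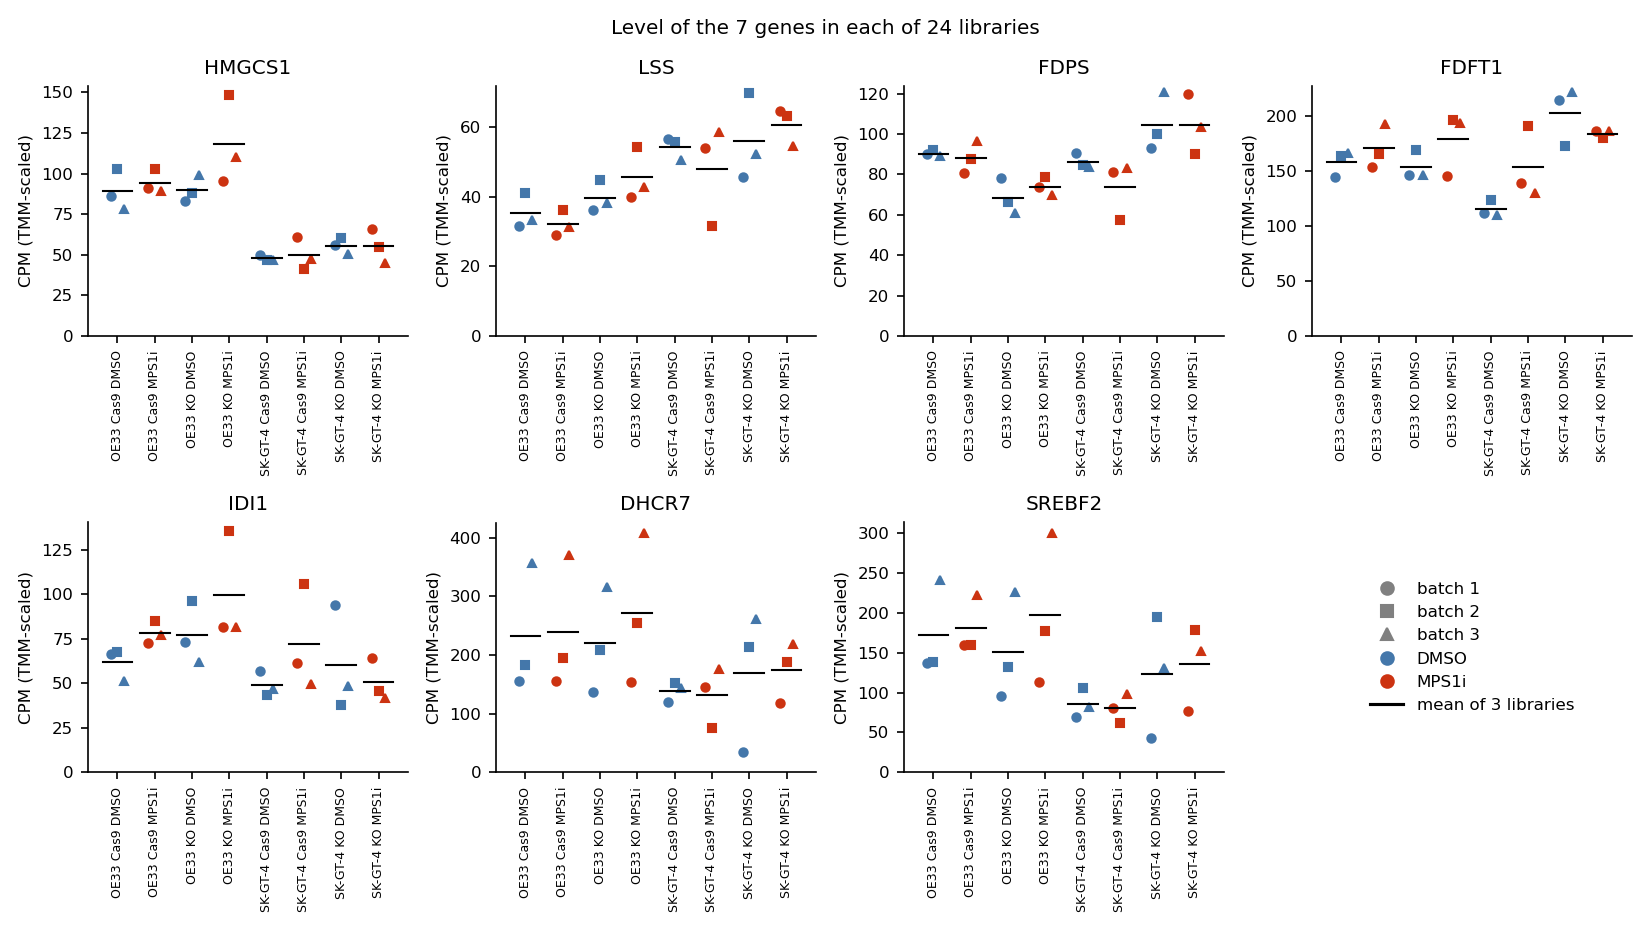
Level of each gene in CPM in all 24 libraries, by cell line, genotype and treatment, with a marker shape for each batch and a bar at the mean of 3 libraries. DHCR7 and SREBF2 are highest in batch 3 of OE33, and all HMGCS1 points of OE33 (78.4 CPM or more) lie above all those of SK-GT-4 (65.6 CPM or less).

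MPS1i did not move any of the 7 genes past the threshold. In edgeR's quasi-likelihood test, 0 of 7 had an adjusted p of at most 0.01 in any of the 4 comparisons with DMSO, and DESeq2 also called 0. The share called among all genes tested was 0.0049% in OE33 Cas9 and 0% in the other 3. At an unadjusted p under 0.05, 1 of the 7 (IDI1) was higher with MPS1i in OE33 Cas9 and 4 (HMGCS1, IDI1, DHCR7 and SREBF2) in OE33 cGAS KO, where 6.95% of all genes tested reached that level in each comparison. In SK-GT-4 it was 0 of 7 in both genotypes, against 2.48% and 1.39% of all genes. DESeq2 gave 1, 4, 0 and 0, for which the shares of all genes are not given. All 7 fitted changes were above 0 in OE33 cGAS KO (median log2 fold change 0.26), while 50.4% of all genes were. Among the 7 genes in OE33 KO cells, that count was 0 without batch 2, 0 without the batch block, 1 without batch 3, 5 without batch 1 and 3 without OE33 cGAS KO DMSO replicate 2, and all 7 stayed above 0 in each of these fits.

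**Figure D2:**
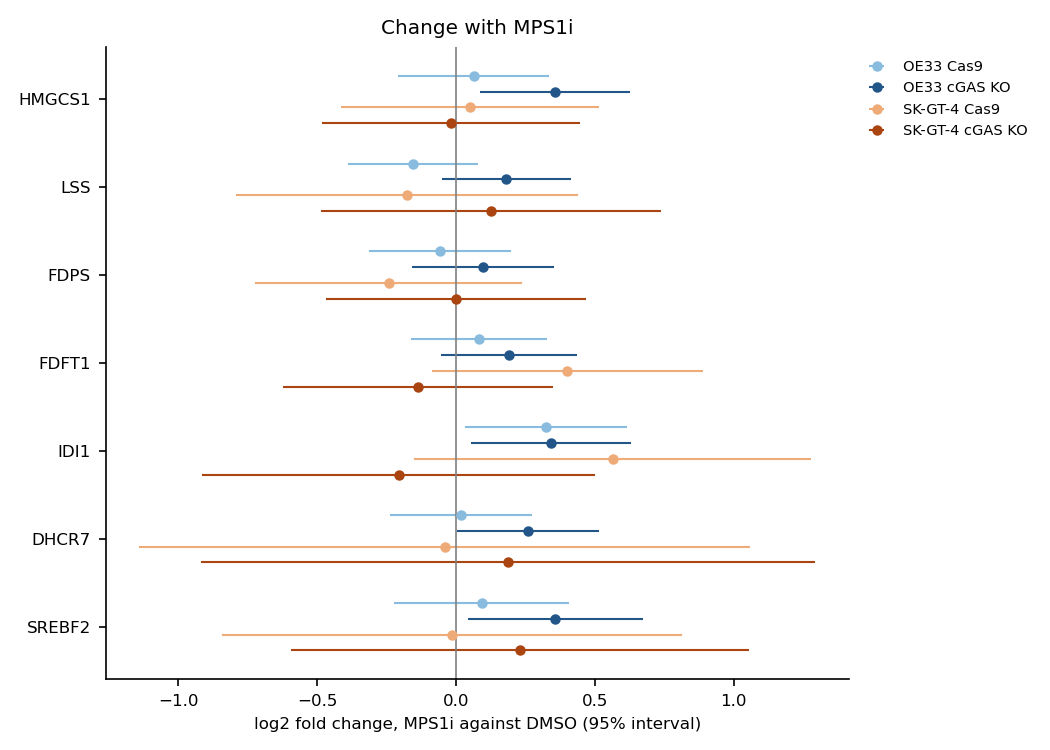
Fitted log2 fold change of MPS1i against DMSO for each gene in the 4 combinations of cell line and genotype, with 95% intervals. In OE33 cGAS KO cells all 7 points are right of 0, between 0.10 and 0.36, and the intervals in SK-GT-4 are wider.

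The cGAS KO and Cas9 cells of a line also differed in 0 of 7 genes at an adjusted p of at most 0.01, in each treatment. The background was 1.47% of all genes in OE33 with DMSO and 2.84% with MPS1i, and 1.76% and 1.41% in SK-GT-4. At an unadjusted p under 0.05, FDPS differed in OE33 with DMSO (1 of 7, against 17.5% of all genes), HMGCS1, IDI1, LSS and FDPS in OE33 with MPS1i (4 of 7, against 21.3%), FDFT1 in SK-GT-4 with DMSO (1 of 7, against 17.5%) and FDPS in SK-GT-4 with MPS1i (1 of 7, against 18.4%). DESeq2 called 0, 1 (LSS), 1 (FDFT1) and 0 at an adjusted p of at most 0.01, and had 1, 3, 1 and 1 of 7 at the unadjusted level. The shares above are those of edgeR. Shares of all genes in DESeq2 are not given, so its counts have no background here. Both treatments share the same clones.

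**Figure D3:**
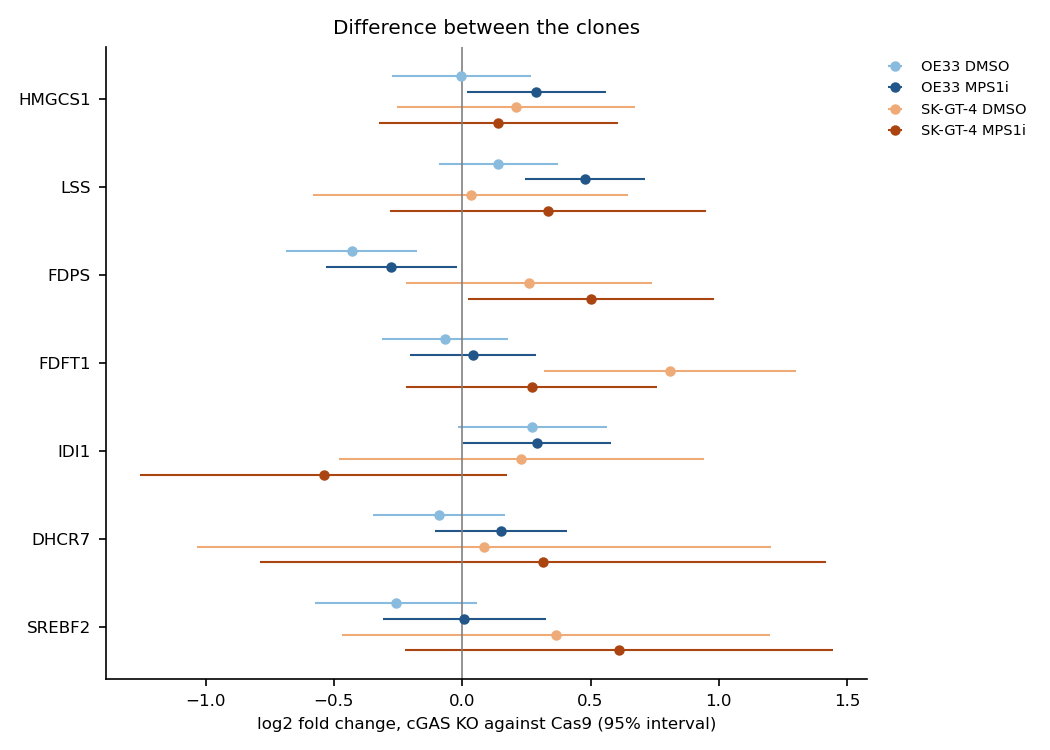
Fitted log2 difference of cGAS KO from Cas9 cells for each gene, in DMSO and in MPS1i and in both lines, with 95% intervals. FDPS is left of 0 in OE33 and right of 0 in SK-GT-4. The largest difference in SK-GT-4 is FDFT1 in DMSO (0.81), and in OE33 it is LSS in MPS1i (0.48). In SK-GT-4 MPS1i, SREBF2 (0.61), IDI1 (−0.54) and FDPS (0.50) also exceed that of LSS in size, with wide intervals.

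The cell lines themselves differed more. At an unadjusted p under 0.05, edgeR had 4, 3, 4 and 3 of the 7 genes in Cas9 DMSO, Cas9 MPS1i, KO DMSO and KO MPS1i, against 41.5%, 44%, 42.3% and 39.2% of all genes. OE33 had more HMGCS1 mRNA than SK-GT-4 in all 4 matched comparisons and more SREBF2 mRNA in 1 of them. At an adjusted p of 0.01 or less, edgeR called 1 of 7 in Cas9 DMSO, 2 in Cas9 MPS1i, 1 in cGAS KO DMSO and 1 in cGAS KO MPS1i, where 24.4%, 25.8%, 24% and 21.4% of all genes tested were called, so the counts were near or below the background. The median log2 difference of all genes was −0.14, −0.16, −0.16 and −0.13. The effect of MPS1i did not differ between the lines for any of the 7 at that threshold in edgeR, with 0 at an unadjusted p under 0.05 in either genotype (1.73% and 1.95% of all genes). DESeq2 had 0 calls, and 0 and 1 gene at the unadjusted level, for which the shares of all genes are not given.

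SREBF2 (ENSG00000198911, chr22:41833079-41907308, plus strand, GRCh38) is the gene of the regulator. It was highest in batch 3 in OE33, and higher in OE33 than in SK-GT-4 in Cas9 cells with MPS1i. In OE33 Cas9 cells its level in batches 1, 2 and 3 was 137, 138 and 241 CPM with DMSO and 160.2, 159.8 and 223 CPM with MPS1i. In OE33 cGAS KO cells it was 95.2, 132 and 227 CPM with DMSO and 114, 177 and 300.5 CPM with MPS1i. Batch 3 was highest in each of the 4 groups, MPS1i was above DMSO in each batch of the KO cells, and all groups overlapped. The MPS1i change in these KO cells had a log2 fold change of 0.36 ± 0.15 (SE, adjusted p = 0.685 by edgeR), and in Cas9 cells of 0.09 ± 0.15.

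In SK-GT-4 Cas9 cells, SREBF2 was at 69.5, 105 and 82.1 CPM with DMSO and 80.5, 62.1 and 98.6 CPM with MPS1i. The KO cells of this line had 43.7, 195 and 131 CPM with DMSO and 77.3, 179 and 153 CPM with MPS1i. The KO cells held both the lowest and the highest of the 12 SK-GT-4 values, so their groups overlapped with those of the Cas9 cells. OE33 Cas9 libraries were all above the SK-GT-4 Cas9 libraries in the same treatment (22% of all genes in DMSO and 20.6% in MPS1i were higher without overlap), with a log2 difference of 0.97 ± 0.33 in DMSO (adjusted p = 0.0255 by edgeR) and of 1.14 ± 0.33 in MPS1i, a 2.21-fold higher level that passed the threshold (adjusted p = 0.00848). That call was kept in 4 of 10 alternative fits, whose adjusted p-values were 0.00119 to 0.0982 and whose log2 differences were 0.94 to 1.26, while the DMSO difference passed in 3 of 10, among them the fit without the 3 libraries in doubt (adjusted p = 0.00207). In cGAS KO cells the same differences, 0.33 ± 0.33 and 0.50 ± 0.33, had 95% intervals that held 0 (−0.36 to 1.01 and −0.18 to 1.18). Without replicate 1 of the KO DMSO and replicate 2 of the Cas9 MPS1i cells of this line, SREBF2 was higher in SK-GT-4 KO than in Cas9 cells with DMSO by 0.68 ± 0.18 (adjusted p = 0.00276), against 0.37 ± 0.38 with all libraries. That fit left out the lowest SREBF2 library of the 12, which was a KO DMSO library, and called many more of all genes, as given under FDFT1. Without all 3 libraries in doubt the MPS1i difference between the lines had an adjusted p of 0.0119.

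HMGCS1 (ENSG00000112972, chr5:43289395-43313512, minus strand, GRCh38) encodes the cytosolic HMG-CoA synthase, an early enzyme of the mevalonate route. OE33 Cas9 cells had it at 86.1, 103 and 78.4 CPM with DMSO and 91.3, 103 and 89.3 CPM with MPS1i in batches 1, 2 and 3. In OE33 cGAS KO cells the values were 83.4, 87.9 and 99.1 CPM with DMSO and 95.2, 149 and 110.3 CPM with MPS1i. Replicate 2 of the KO cells with MPS1i stood out as the highest of the 12 OE33 libraries, and the OE33 groups overlapped with each other. The MPS1i change in KO cells was 0.36 ± 0.13 on the log2 scale (95% interval 0.08 to 0.63, adjusted p = 0.621 by edgeR), and its within-batch values were 0.19, 0.76 and 0.16. It was 0.22 ± 0.13 without OE33 cGAS KO DMSO replicate 2, the library whose CGAS level went against its label.

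In SK-GT-4, HMGCS1 was at 49.6, 46.5 and 47.0 CPM in Cas9 cells with DMSO and at 60.6, 41.4 and 47.3 CPM with MPS1i. The KO cells had 55.7, 60.5 and 50.6 CPM with DMSO and 65.6, 54.8 and 45.1 CPM with MPS1i. The 12 OE33 values lay between 78.4 and 149 CPM and the 12 SK-GT-4 values between 41.4 and 65.6 CPM, so the lines did not overlap. HMGCS1 was the 1 gene of the 7 with no overlap over all 24 libraries, as were 8.01% of all genes in the same direction. The log2 difference was 0.89 ± 0.20 in Cas9 DMSO (adjusted p = 0.00128), 0.92 ± 0.20 in Cas9 MPS1i (adjusted p = 0.000962), 0.70 ± 0.20 in KO DMSO (adjusted p = 0.00903) and 1.10 ± 0.21 in KO MPS1i (adjusted p = 0.000182), all by edgeR and with 3 libraries against 3. These are levels 1.86, 1.89, 1.63 and 2.14 times as high. The 25 other genes tested within 5 Mb of HMGCS1 had median differences of 0.32, 0.37, 0.26 and 0.61 in the same comparisons, and their part in this was not tested. The KO DMSO call was kept in 4 of 10 alternative fits. It was lost without any 1 of the batches, and with RLE factors (adjusted p = 0.0159), without a filter (adjusted p = 0.0231) and without the batch block (adjusted p = 0.0135). The 2 Cas9 calls were lost without batch 2 or batch 3 and the KO MPS1i call without batch 3, with log2 differences of 0.57 to 1.01 in these fits.

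IDI1 (ENSG00000067064, chr10:1039152-1049170, minus strand) encodes the isomerase that makes dimethylallyl diphosphate from isopentenyl diphosphate, the starter unit of isoprenoid chains. In OE33 Cas9 cells it was at 66.6, 67.6 and 51.1 CPM with DMSO and 72.7, 85.2 and 76.8 CPM with MPS1i. In OE33 cGAS KO cells the values were 73.0, 96.3 and 61.9 CPM with DMSO and 81.4, 135 and 81.7 CPM with MPS1i. The 3 MPS1i libraries of the Cas9 cells lay above their 3 DMSO libraries, which made IDI1 the 1 gene of the 7 without overlap there (5.6% of all genes were without overlap in that direction), while the KO groups overlapped. MPS1i exceeded DMSO in every batch of both genotypes, by 0.13, 0.33 and 0.59 on the log2 scale in Cas9 cells and by 0.16, 0.49 and 0.40 in KO cells. The fitted changes were 0.32 ± 0.14 (95% interval 0.03 to 0.61, adjusted p = 0.669 by edgeR) and 0.34 ± 0.14 (0.06 to 0.63, adjusted p = 0.634), and differed by −0.02 ± 0.19 between the genotypes.

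In SK-GT-4 Cas9 cells, IDI1 was at 56.7, 43.4 and 46.5 CPM with DMSO and 61.5, 106 and 49.6 CPM with MPS1i. The KO cells had 94.0, 38.0 and 48.4 CPM with DMSO and 64.4, 45.8 and 41.5 CPM with MPS1i. The highest SK-GT-4 values, 106 and 94.0 CPM, were those of the same 2 libraries with small TMM factors, and each pair of SK-GT-4 groups overlapped. Without replicate 2 of the Cas9 MPS1i cells the MPS1i change in Cas9 cells, 0.56 ± 0.33 with all libraries, was 0.05 ± 0.25. The log2 difference of OE33 from SK-GT-4 was 0.97 ± 0.28 in KO cells with MPS1i, without overlap (18.4% of all genes), at an adjusted p of 0.0105 by edgeR. It passed in 4 of 10 alternative fits, which were those without batch 1 (adjusted p = 0.00505), without the 3 libraries in doubt (adjusted p = 0.000205), without a filter (adjusted p = 0.00612) and with the batch block within each line (adjusted p = 0.00674). In the other 3 comparisons of the lines the differences were 0.15 to 0.36, and that in KO DMSO cells, 0.36 ± 0.28, was −0.04 ± 0.25 without batch 2. The 21 other genes tested within 5 Mb of IDI1 had a median difference of 0.94 in that comparison, and their part in it was not tested.

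FDPS (ENSG00000160752, chr1:155308748-155320666, plus strand) encodes farnesyl diphosphate synthase, which joins isoprenoid units into farnesyl diphosphate, the branch point to sterols, prenylation and ubiquinone. In OE33 Cas9 cells it was at 90.1, 91.9 and 89.1 CPM with DMSO and 80.9, 87.8 and 96.5 CPM with MPS1i. The OE33 KO cells had 78.3, 66.2 and 61.0 CPM with DMSO and 73.6, 78.6 and 69.8 CPM with MPS1i. All 6 KO libraries lay below all 6 Cas9 libraries, which held for 1 of the 7 genes and for 1.32% of all genes in that direction. The difference was −0.43 ± 0.12 with DMSO (adjusted p = 0.0521 by edgeR) and −0.28 ± 0.12 with MPS1i (adjusted p = 0.193), 1.35 and 1.21 times lower in KO cells, and it was below 0 in each batch. The 157 other genes tested within 5 Mb of FDPS had medians of −0.23 and −0.22 in these comparisons, and 158 such genes had 0.19 and 0.19 in SK-GT-4, and their part in the difference was not tested.

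In SK-GT-4 Cas9 cells, FDPS was at 90.8, 84.8 and 83.7 CPM with DMSO and 81.2, 57.4 and 83.4 CPM with MPS1i. The KO cells had 93.1, 100.2 and 121 CPM with DMSO and 119.9, 90.1 and 103 CPM with MPS1i. Here the KO libraries lay above the Cas9 libraries in each treatment, the opposite order to OE33 (11.5% of all genes were higher without overlap with MPS1i). The MPS1i libraries of the Cas9 cells lay just below their DMSO libraries (3.9% of all genes), with 83.4 CPM as the highest of the former and 83.7 CPM as the lowest of the latter. The KO difference was 0.26 ± 0.22 with DMSO and 0.50 ± 0.22 with MPS1i (adjusted p = 0.249 by edgeR). Whether the KO difference itself differed between the lines was not tested. Between the lines, the log2 difference of OE33 from SK-GT-4 in FDPS was −0.61 ± 0.19 in KO cells with DMSO (adjusted p = 0.0139 by edgeR) and −0.49 ± 0.19 with MPS1i (adjusted p = 0.0513), and 0.07 ± 0.19 and 0.26 ± 0.19 in Cas9 cells. DESeq2 called both KO differences, at −0.68 ± 0.15 (adjusted p = 1.64e-05) and −0.55 ± 0.15 (adjusted p = 0.000664), and so did edgeR without the 3 libraries in doubt (adjusted p = 0.00419 and 0.00939). The DMSO difference also passed with edgeR's own filter (adjusted p = 0.00361), with RLE factors (adjusted p = 0.0046) and with the batch block within each line (adjusted p = 0.00852).

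FDFT1 (ENSG00000079459) encodes squalene synthase, which commits farnesyl diphosphate to sterols. Cas9 cells of OE33 had it at 145, 164 and 166 CPM with DMSO and 154, 166 and 193 CPM with MPS1i, and in OE33 cGAS KO cells at 147, 169 and 147 CPM with DMSO and 146, 197 and 194 CPM with MPS1i. It was the steadiest of the 7 genes in OE33, where its highest library was 1.36 times its lowest, and all OE33 groups overlapped. In SK-GT-4 Cas9 cells it was at 112, 124 and 110.0 CPM with DMSO and 139, 191 and 131 CPM with MPS1i, and in SK-GT-4 cGAS KO cells at 215, 173 and 222 CPM with DMSO and 186, 179.9 and 186 CPM with MPS1i. The 3 KO DMSO libraries lay above the 3 Cas9 DMSO libraries, and the 3 Cas9 MPS1i libraries were also above the Cas9 DMSO libraries (5.15% of all genes were higher without overlap).

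The FDFT1 difference of SK-GT-4 KO from Cas9 cells with DMSO was 0.81 ± 0.22 on the log2 scale (1.75-fold, 95% interval 0.32 to 1.30, adjusted p = 0.0675 by edgeR), above 0 in each batch at 0.94, 0.48 and 1.01. HMGCS1, FDPS and FDFT1 were the 3 of 7 genes without overlap in that comparison, where 9.93% of all genes were higher without overlap. DESeq2 called FDFT1 (0.84 ± 0.22, adjusted p = 0.00261), and so did edgeR without the 2 SK-GT-4 libraries in doubt (0.76 ± 0.18, adjusted p = 0.00053), a setting in which 2964 genes were called in place of 400. The other 18 genes tested within 5 Mb had a median of −0.14. With MPS1i the difference was 0.27 ± 0.22, and the MPS1i change in SK-GT-4 was 0.40 ± 0.22 in Cas9 cells and −0.14 ± 0.22 in KO cells, which differed by 0.54 ± 0.31 (adjusted p = 0.823 by edgeR). Between the lines, FDFT1 was higher in OE33 without overlap in Cas9 DMSO (0.46 ± 0.19, 22% of all genes). It was lower without overlap in KO DMSO (−0.41 ± 0.19, 19% of all genes), so the order of the lines differed with the clones. With MPS1i the differences were 0.16 ± 0.19 and −0.05 ± 0.19, and none was called in edgeR.

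LSS (ENSG00000160285, chr21:46188141-46228824, minus strand) encodes lanosterol synthase, which folds oxidosqualene into the sterol ring system. The level in OE33 Cas9 cells was 31.6, 41.0 and 33.3 CPM with DMSO and 29.0, 36.3 and 31.3 CPM with MPS1i, lower with MPS1i in each batch. The OE33 KO cells had 36.0, 44.7 and 38.2 CPM with DMSO and 39.9, 54.2 and 42.6 CPM with MPS1i, higher with MPS1i in each batch. The within-batch log2 changes were −0.12, −0.18 and −0.09 in Cas9 and 0.15, 0.28 and 0.16 in KO cells, although the groups with and without MPS1i overlapped in both. The fitted changes were −0.16 ± 0.11 and 0.18 ± 0.11, and their difference, −0.34 ± 0.16, had a 95% interval of −0.67 to −0.01 and an adjusted p of 1 by edgeR. LSS was the 1 gene of 7 under an unadjusted p of 0.05 for this difference, as were 1.88% of all genes, and all 7 differences were below 0 (median −0.24, against 50% of all genes above 0). Without OE33 cGAS KO DMSO replicate 2 the LSS difference was −0.30 ± 0.16, 0 of the 7 were under an unadjusted p of 0.05 and the median of the 7 was −0.14. The count was also 0 without any 1 of the batches, without the batch block and without a filter, and without batch 2 the median was −0.03.

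With MPS1i, the OE33 KO libraries lay above the Cas9 libraries for LSS, and 9.35% of all genes were higher without overlap in that comparison. The difference was 0.48 ± 0.11 on the log2 scale (1.39-fold, 95% interval 0.24 to 0.71) and missed the threshold at an adjusted p of 0.0139 by edgeR, and was 0.46, 0.58 and 0.44 within the batches. It passed in DESeq2 (0.48 ± 0.11, adjusted p = 0.000243) and in edgeR without OE33 cGAS KO DMSO replicate 2 (0.46 ± 0.11, adjusted p = 0.00695). With DMSO it was 0.14 ± 0.11, and the 52 other genes tested within 5 Mb had medians of 0.01 with MPS1i and −0.03 with DMSO.

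In SK-GT-4 Cas9 cells, LSS was at 56.4, 55.7 and 50.6 CPM with DMSO and 53.8, 31.4 and 58.6 CPM with MPS1i, and in the KO cells at 45.5, 69.7 and 52.2 CPM with DMSO and 64.5, 63.1 and 54.5 CPM with MPS1i. The value of 31.4 CPM, in Cas9 MPS1i replicate 2, was far under the other 11. LSS was lower in OE33 than in SK-GT-4 without overlap in 3 of the 4 matched comparisons (28.1% of all genes in Cas9 DMSO, 19% in KO DMSO and 22.9% in KO MPS1i), the opposite order to HMGCS1. The log2 differences were −0.63 ± 0.22 (adjusted p = 0.0316), −0.60 ± 0.22 (adjusted p = 0.0387), −0.49 ± 0.22 and −0.42 ± 0.22, so none passed in edgeR, while DESeq2 called both Cas9 differences (adjusted p = 0.00412 and 0.00363). Without the 3 libraries in doubt the first and the second were −0.61 ± 0.14 (adjusted p = 0.00116) and −0.89 ± 0.16 (adjusted p = 7.76e-05). The 56 other genes tested within 5 Mb of LSS had median differences of −0.39, −0.39, −0.20 and −0.33 in the 4 matched comparisons. Their part in the LSS difference was not tested.

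DHCR7 (ENSG00000172893, chr11:71428193-71452868, minus strand) encodes the reductase that turns 7-dehydrocholesterol into cholesterol, the last step of the Kandutsch-Russell branch. In OE33 Cas9 cells it was at 156, 183 and 357 CPM with DMSO and 156, 194 and 369.7 CPM with MPS1i, and in OE33 cGAS KO cells at 137, 208 and 317 CPM with DMSO and 153, 254 and 407 CPM with MPS1i. All 4 libraries of batch 3 (317 to 407 CPM) lay above the 8 of batches 1 and 2 (137 to 254 CPM). The MPS1i change was 0.02 ± 0.12 in Cas9 cells and 0.26 ± 0.12 in KO cells (adjusted p = 0.713 by edgeR), and within the batches of the KO cells 0.16, 0.28 and 0.36.

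In SK-GT-4 Cas9 cells, DHCR7 was at 119, 152 and 143 CPM with DMSO and 145, 76.4 and 176 CPM with MPS1i. The KO cells had 35.0, 214 and 261 CPM with DMSO and 118, 188 and 219 CPM with MPS1i. The 3 KO DMSO libraries spanned the whole range of the line, from 35.0 CPM in replicate 1 to 261 CPM in replicate 3, a 7.44-fold spread that was the widest of the 7 genes. The MPS1i change in KO cells was 0.19 ± 0.50 with all libraries and −0.37 ± 0.32 without replicate 1 of the KO DMSO cells, so its sign rested on that library. The KO difference with DMSO was 0.08 ± 0.51, and 0.62 ± 0.18 (adjusted p = 0.00792 by edgeR) without the 2 SK-GT-4 libraries in doubt. That fit left out the lowest KO DMSO library and called many more of all genes, as given under FDFT1. Between the lines the log2 differences of DHCR7 (OE33 minus SK-GT-4) were 0.49 to 0.73, with adjusted p-values of 0.131 to 0.330, and all 4 intervals held 0. In Cas9 cells with MPS1i the difference, 0.73 ± 0.37, was 1.19 ± 0.32 and passed without batch 1 (adjusted p = 0.00686 by edgeR). In KO cells with DMSO it was 0.49 ± 0.37 with all libraries and 0.02 without the 3 libraries in doubt.

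DHCR7 and SREBF2 were the genes of the 7 that moved with the batch in OE33. Both were higher in all 4 batch 3 libraries than in the other 8, as were 6.9% of all genes, and mitochondrial genes took 5.10% to 8.94% of the counts in batch 3 against 1.34% to 2.31% in batches 1 and 2. Whether the mitochondrial share had a part in this was not tested. FDPS, FDFT1, HMGCS1, LSS and IDI1 overlapped between batch 3 and the others. In SK-GT-4 all 7 genes overlapped between batch 3 and the others.

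**Figure D4:**
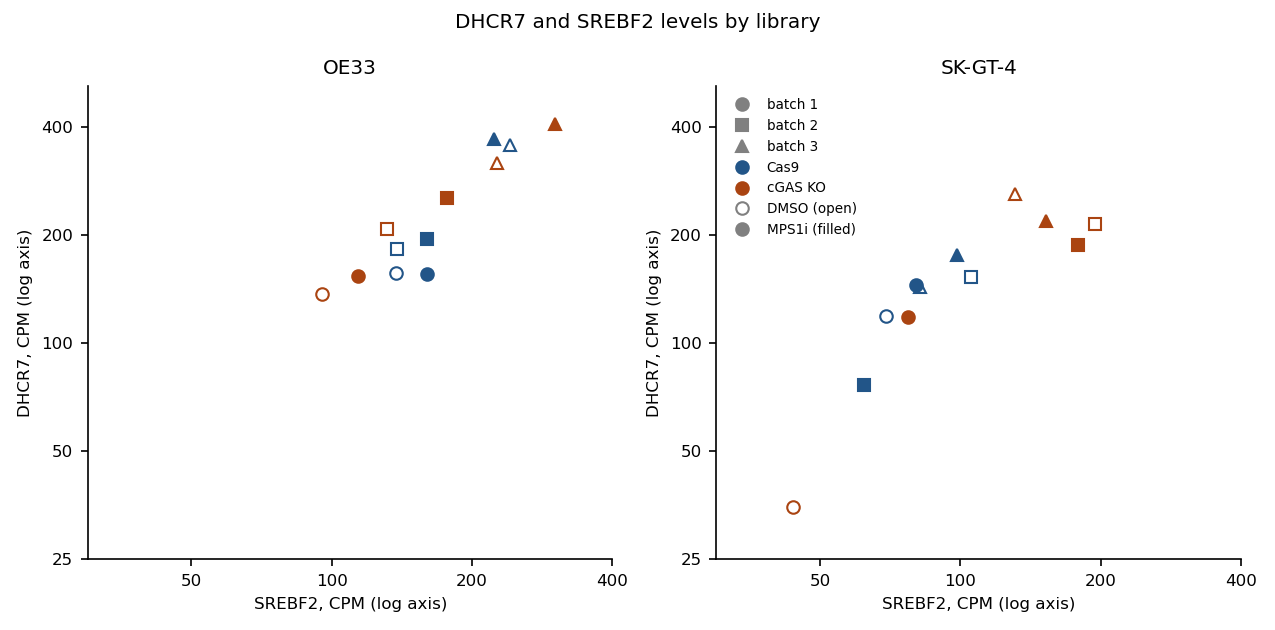
SREBF2 against DHCR7 level in CPM on log axes, 12 libraries in each cell line, by genotype, treatment and batch. The points rise together in both lines (Pearson r of log2 CPM 0.93 for OE33, 0.87 for SK-GT-4), with the batch 3 libraries of OE33 at the upper right and replicate 1 of the SK-GT-4 KO DMSO cells at the lower left (35.0 CPM of DHCR7 and 43.7 CPM of SREBF2).

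The 7 genes did not vary as 1 unit over the libraries. Across the 12 libraries of a line, which share 3 batches and 2 clones, 13 of the 21 gene pairs had a positive Pearson correlation of log2 CPM in OE33 (from −0.46 to 0.93, median 0.18) and 13 in SK-GT-4 (from −0.86 to 0.87, median 0.21). After the batch means were removed, 16 were positive in OE33 (from −0.63 to 0.83, median 0.45). In SK-GT-4 14 were then positive (from −0.91 to 0.87, median 0.39). The pair with the highest correlation in both lines was DHCR7 and SREBF2, at 0.93 (Spearman 0.87) and 0.87 (Spearman 0.92). This pair had 0.65 and 0.87 after the batch means were removed, when FDFT1 and DHCR7 (0.83) had the highest value in OE33. HMGCS1 and LSS had 0.74 and 0.61. IDI1 went with HMGCS1 (0.75) and LSS (0.70) in OE33 but not in SK-GT-4 (−0.06 and −0.76), where it ran against DHCR7 (−0.86) and SREBF2 (−0.84). Without the 2 SK-GT-4 libraries in doubt, where IDI1 was highest and DHCR7 and SREBF2 were lowest, these last correlations were −0.68 and −0.79 over 10 libraries. Those of IDI1 with HMGCS1 and LSS were then 0.45 and −0.13, so their SK-GT-4 values rested largely on these 2 libraries. These values describe the libraries and were not tested.

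Among 13 other genes of cholesterol synthesis, 0 were called with MPS1i in edgeR in any of the 4 comparisons. At an unadjusted p under 0.05, 1 was higher and 1 lower in OE33 Cas9, 3 were higher in OE33 cGAS KO and 0 were under it in SK-GT-4. In OE33 KO cells 11 of the 13 were above 0 (median 0.17, against 0.00 for all genes). SQLE, which encodes squalene epoxidase, was at 0.01 ± 0.12, 0.18 ± 0.12, 0.31 ± 0.21 and −0.05 ± 0.21 in OE33 Cas9, OE33 KO, SK-GT-4 Cas9 and SK-GT-4 KO cells. As for the 7 genes, 13 of 13 differences of the MPS1i change (Cas9 minus KO) were below 0 in OE33, where 50% of all genes were above 0. Their median was −0.18, with 0 at an unadjusted p under 0.05. In SK-GT-4 11 of 13 were above 0, and the share of all genes is not given there. The genes were read in the same libraries, so their signs are not independent.

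Of 4 SREBP2 targets outside the synthesis route, 0 were called for MPS1i in edgeR, and 1, 3, 2 and 0 were under an unadjusted p of 0.05. INSIG1, whose product retains SCAP in the endoplasmic reticulum, had changes of 0.48 ± 0.16 in OE33 Cas9, 0.55 ± 0.16 in OE33 KO, 0.60 ± 0.24 in SK-GT-4 Cas9 and −0.23 ± 0.23 in SK-GT-4 KO cells, with adjusted p-values of 0.58 or more. STARD4, a sterol carrier, had 0.33 ± 0.19, 0.51 ± 0.19, 0.60 ± 0.25 and 0.06 ± 0.25 in the same order.

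Between KO and Cas9 cells, edgeR called 1 of the other 13 synthesis genes and 2 of the 4 targets, each in 1 line, where 1.47% (OE33 DMSO), 2.84% (OE33 MPS1i), 1.76% (SK-GT-4 DMSO) and 1.41% (SK-GT-4 MPS1i) of all genes were called, and the difference between the lines was not tested for these. TM7SF2, which encodes a sterol reductase, was 0.85 ± 0.15 higher in OE33 KO cells with MPS1i (adjusted p = 0.0029) and 0.57 ± 0.15 with DMSO (adjusted p = 0.043). NPC1, the gene of the lysosomal cholesterol transporter, was 0.76 ± 0.15 higher in OE33 KO cells with DMSO (adjusted p = 0.0072) and 0.84 ± 0.15 with MPS1i (adjusted p = 0.0027). INSIG1 was 1.43 ± 0.24 higher in SK-GT-4 KO cells with DMSO (adjusted p = 0.0069) and 0.60 ± 0.24 with MPS1i. TM7SF2 lies on chromosome 11, NPC1 on chromosome 18 and INSIG1 on chromosome 7. Genes near them were not compared, so whether a whole region differed between the clones was not tested. SQLE, on chromosome 8, was at −0.40 ± 0.12 in OE33 with DMSO (adjusted p = 0.061) and 0.32 ± 0.21 in SK-GT-4, so the values had opposite signs in the lines. FDPS also had opposite signs, but genes near SQLE were not compared, and a shared origin of the 2 patterns was not tested. In SK-GT-4 with DMSO, 11 of the 13 synthesis genes were above 0 (median 0.65, against 0.03 for all genes) and 5 were higher at an unadjusted p under 0.05. The epithelial markers CDH1 and EPCAM were also higher in these KO cells, at 21.4 to 224 CPM and 168 to 429 CPM against 3.83 to 13.8 CPM and 45.1 to 105 CPM, as were the 5 epithelial markers summed (9021 to 19356 CPM against 3678 to 8636 CPM). Their part in these differences was not tested.

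**Figure D5:**
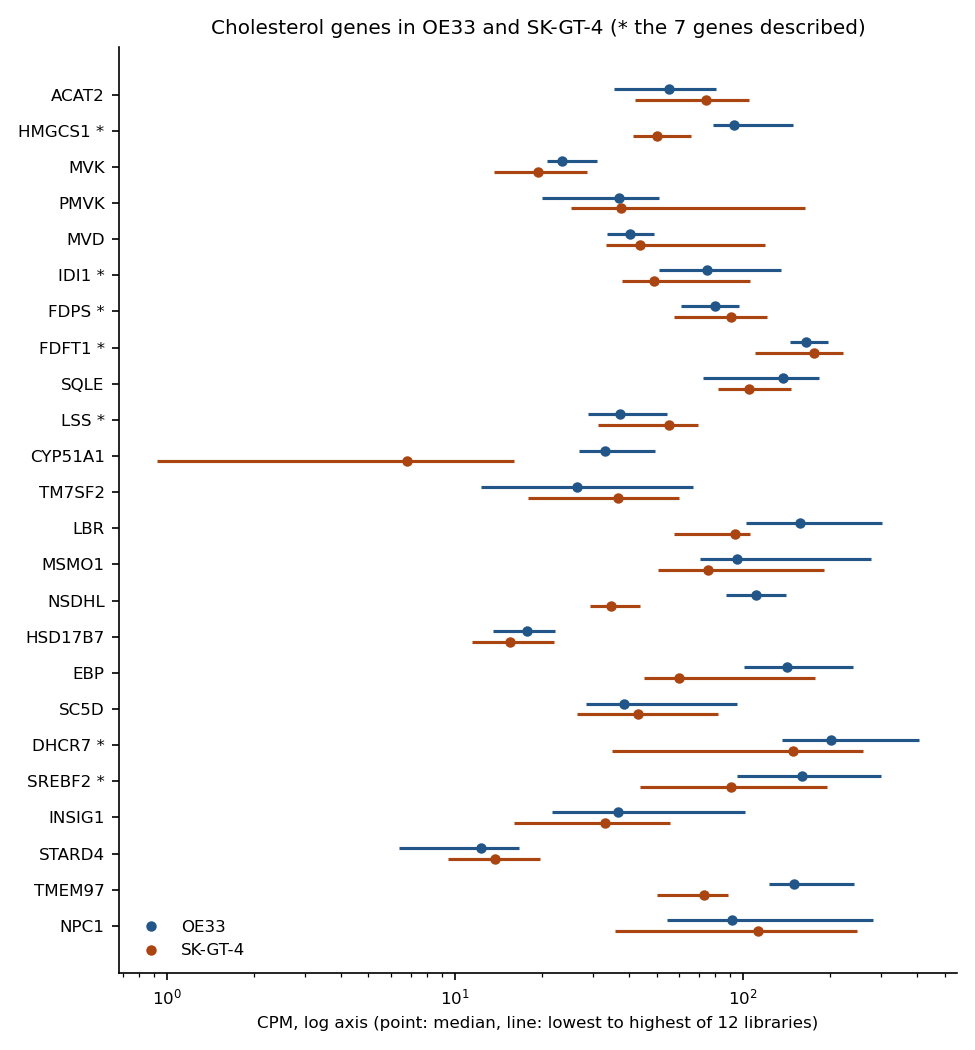
Level in CPM, on a log axis, of 20 cholesterol synthesis and SREBF2 genes and 4 further SREBP2 targets in each cell line, with a point at the median and a line from the lowest to the highest of 12 libraries. Lines of the 2 cell lines do not overlap for HMGCS1, CYP51A1, NSDHL and TMEM97.

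Of the 13 other synthesis genes, edgeR called 4 higher in OE33 than in SK-GT-4 in Cas9 DMSO, 2 in Cas9 MPS1i, 2 in KO DMSO and 3 in KO MPS1i, and 0 lower in each (at an unadjusted p under 0.05, 0, 1, 2 and 0 were lower). Of all genes, 24.4%, 25.8%, 24% and 21.4% were called in either direction in these comparisons, which is also the background for the lists that follow. NSDHL, which encodes a sterol dehydrogenase of the demethylation steps, was higher in all 4 (log2 differences of 1.79, 1.54, 1.57 and 1.85, each ± 0.17). CYP51A1, the lanosterol demethylase, was higher in Cas9 cells (2.83 ± 0.55 and 2.89 ± 0.56), EBP in Cas9 DMSO and KO MPS1i (1.44 and 1.31), MVK in Cas9 DMSO (0.74 ± 0.21) and LBR in KO cells (1.15 and 1.00). SQLE was between −0.10 and 0.59, without a call.

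Among the 4 targets, TMEM97, which encodes an endoplasmic reticulum protein that binds NPC1, was higher in OE33 in all 4 comparisons (1.17, 1.49, 1.02 and 1.12). Of 8 genes of SREBP transport and turnover, INSIG2 was higher in OE33 in all 4 comparisons (1.52, 1.00, 0.92 and 1.29) and RNF139 lower in KO MPS1i (−0.88), while SCAP was between −0.08 and 0.41 and SREBF1, which encodes SREBP1, between −0.44 and 0.89. For MPS1i and for the clones, 0 of these 8 were called in edgeR, with at most 3 at an unadjusted p under 0.05.

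Of 8 cholesterol export and LXR genes, edgeR called 4, 4, 3 and 3 lower in OE33 in the order Cas9 DMSO, Cas9 MPS1i, KO DMSO and KO MPS1i, among them ABCA1, the sterol exporter (−1.71, −1.95, −1.61 and −1.61), ABCG1 and APOE, and 1 higher (MYLIP in Cas9 MPS1i, 1.09). Of 11 fatty acid genes, 3, 2, 1 and 0 were called higher and 3, 2, 3 and 3 lower, with ELOVL6 and ACSS2 among the first and FADS1, FADS2 and ELOVL5 among the second. SCD, the stearoyl-CoA desaturase gene, was 1.23 ± 0.33 higher in Cas9 DMSO, and FASN, the fatty acid synthase gene, 0.94 to 1.34 without a call. Of 7 genes of the nonsterol branch, 0 were higher and 3, 3, 2 and 1 lower (GGPS1, FNTA and PDSS2). MPS1i and the clones gave 0 calls in these 3 lists.

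The genes with a mean of at least 1 CPM numbered 13280, the 7 genes included. Outside the 7, those whose log2 CPM followed the mean standardised level of the 7 genes most closely in both lines were CEMIP (Pearson r 0.75 in OE33 and 0.83 in SK-GT-4), EPS15 (0.78 and 0.75), AMDHD1 (0.74 and 0.80), HIPK3 (0.74 and 0.79) and ERMP1 (0.73 and 0.81), each over 12 libraries. HSD17B7, a gene of the synthesis route, ranked 9 with 0.71 in both. In OE33 alone the highest were UBN2 (0.90), SPX (0.84) and AGR2 (0.83), and in SK-GT-4 alone OGDH (0.96), VSTM5 (0.95) and AJUBA (0.95). Libraries in a line share batches and clones, so these values order the genes and were not tested.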

How the data were processed

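RNA of 24 libraries was poly(A) selected and read as 150-bp pairs. The authors mapped reads to GRCh38 with HISAT2 2.0.5 and deposited raw counts per gene from featureCounts 1.5.0. The annotation release, strand setting and treatment of multimapping reads are not given in the sources used here.

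Counts were tested in R 4.3.3 with edgeR 4.0.16 (quasi-likelihood, TMM factors, Benjamini-Hochberg adjustment over all genes, two-sided), separately in each line with batch as a block, and over all 24 libraries between lines. Genes with a total under 5 or with reads in fewer than 4 libraries were dropped, leaving 20426 (OE33), 22782 (SK-GT-4) and 25181 (both lines). A call was an adjusted p of at most 0.01. The ± of a fold change is its standard error. Batches are labelled, and same-batch libraries deviated together (median correlation 0.602 in OE33 and 0.434 in SK-GT-4). DESeq2 1.42.0, other filters and factors, other blocks and left-out libraries were alternatives. The script was tested on simulated data. Log2 CPM for correlations used a prior count of 2.

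The 7 genes and all lists were chosen with earlier results of these data known. From the lists the text names SQLE, INSIG1, STARD4, SREBF1, SCAP, FASN, SCD and ABCA1, and genes called in a comparison described (up to 5 per list and comparison). Some genes of these lists are not reported here and are left out of the list counts and levels. Libraries in doubt were chosen after the data were seen.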

Additional observations from a re-analysis of the deposited data

Results flagged for a closer look

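Items were flagged where a pair of changes had opposite signs in every batch. The search covered the 7 genes and SQLE, INSIG1, STARD4, SREBF1, SCAP, FASN, SCD and ABCA1, between genotypes, treatments and lines. Some of so many checks can pass by chance, so the signs below describe the choice and are no test. In OE33 the MPS1i change of LSS had opposite signs in the genotypes in every batch, and the difference of the log2 changes, Cas9 minus cGAS KO, was −0.337 (unadjusted p under 0.05, adjusted p = 1 by edgeR). It was −0.30, at an unadjusted p over 0.05, without OE33 cGAS KO DMSO replicate 2. The difference between cGAS KO and Cas9 cells ran in opposite directions in OE33 and SK-GT-4, in all 3 batches of each line, for FDPS with DMSO (OE33 minus SK-GT-4, −0.675 log2) and with MPS1i (−0.762), and for SQLE with DMSO (−0.709). These 3 differences were not tested, and genes near SQLE on chromosome 8 were not compared. For INSIG1 the MPS1i change was 0.829 larger in Cas9 than in cGAS KO cells of SK-GT-4 (unadjusted p under 0.05, adjusted p = 0.82 by edgeR), and 0.799 larger in OE33 than in SK-GT-4 among cGAS KO cells (unadjusted p under 0.05, adjusted p = 1 by edgeR). Groups held 3 libraries, too few for a search for single outlying libraries.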

How the results depend on the processing

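The 4 MPS1i comparisons and the differences between MPS1i changes had 0 of the 7 genes called in edgeR under every alternative run. Between the lines, the calls among the 7 genes in Cas9 DMSO (1 as reported) were 2 with DESeq2, 2 without a filter and 3 without the 3 libraries in doubt, and 0 to 1 when 1 batch was left out. In Cas9 MPS1i (2) they were 3 with DESeq2, 1 with edgeR's own filter, 1 with RLE factors, 1 with no replicate block and 0 to 2 with 1 batch left out. In cGAS KO DMSO (1) they were 2 with DESeq2, 2 with edgeR's own filter, 1 with RLE factors (FDPS in place of HMGCS1), 0 without a filter, 0 with no replicate block, 2 with the block within cell line, 2 without the 3 libraries and 0 with any batch left out. In cGAS KO MPS1i (1) they were 2 with DESeq2, 2 without a filter, 2 with the block within cell line, 3 without the 3 libraries and 0 to 2 with 1 batch left out. Between KO and Cas9 cells, where 0 were called, DESeq2 called 1 in OE33 with MPS1i (LSS) and 1 in SK-GT-4 with DMSO (FDFT1). Leaving out OE33 cGAS KO DMSO replicate 2 gave 1 (LSS), and leaving out both SK-GT-4 libraries in doubt gave 3 (FDFT1, DHCR7 and SREBF2). The fit without both SK-GT-4 libraries also called many more of all genes, as given under FDFT1. Leaving out each batch in turn gave 0 between KO and Cas9 cells. The shares of all genes called in the other alternative fits, DESeq2 among them, are not given, so these counts lack a background. The cause of these changes was not tested.

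Of 1120 alternative values for single comparisons of the 7 genes, 17 lost a call and 26 gained one. In 79 the sign changed, in 15 of them by more than the standard error, and none of these was called as reported or in the alternative. RLE factors and the unfiltered table were not run for the difference of MPS1i changes between lines. With 3 libraries a group and a biological coefficient of variation in SK-GT-4 of 34.0%, above that of OE33, small differences were harder to detect in SK-GT-4.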
